A study of Mus musculus with 28 samples.

Results

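The comparison described here set retroperitoneal fat of mice after 2 days on a diet with conjugated linoleic acid (CLA) against the same depot after 1 day on that diet. It used the 4 arrays labelled as CLA-fed on day 1 or day 2, out of 28 in the series, with 2 arrays for each day. The 4 control arrays of the same days were examined for the same genes. All groups came from C57BK/6J mice (the spelling of the labels), given as 9 weeks old for every day of feeding. The CLA diet carried 0.5% of the trans-10, cis-12 isomer, and the control groups received a control diet on the same days. The other groups of the series were taken at 3, 4, 7, 10 and 17 days and entered the estimate of the spread between arrays. Each sample pooled both retroperitoneal pads of 10 mice. The 140 mice of the study in pools of 10 give 14 pools, which equals the number of groups, and each group had 2 arrays. From the labels it is therefore unclear if separate pools were hybridised to both arrays of a group. The p-values measure the spread between these arrays, which may be technical.

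Trans-10, cis-12 CLA is the CLA isomer known for loss of body fat in mice. White fat tissue holds lipid-filled adipocytes beside macrophages, endothelial cells, progenitors and other stromal cells. Cells under stress use several transcription programmes. Heat shock factor 1 turns on the chaperones that refold proteins. Translation block by eIF2 kinases raises ATF4, which drives amino acid synthesis and import, tRNA charging and the feedback genes of the integrated stress response. AP-1, EGR and NF-kB factors turn on immediate early genes, cytokines and chemokines. Genes of DNA replication and mitosis are driven by E2F factors when cells enter the cycle, and macrophages in fat tissue can divide locally or arrive as monocytes.

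The values were the authors' deposited log2 probe-set signals, so a difference of 1 is a 2-fold change. Genes were tested with limma across 18195 genes, and a gene was called at a Benjamini-Hochberg adjusted p below 0.05. Array medians lay between 4.1 and 4.2, and the arrays of a group correlated at 0.979 to 0.995 over genes. The groups of days 1 and 2 held the low end (0.979 to 0.986), with an SD between arrays of 0.28 to 0.34. In the other groups that SD was 0.17 to 0.24. As a marker of the labelled tissue, the adipocyte hormone gene Adipoq (adiponectin) stood at 12.51 and 12.69 on day 1 of CLA, 12.44 and 12.66 on day 2, 13.53 and 13.68 on control day 1, and 13.57 and 13.75 on control day 2. Control libraries of both days differed from their partners. Replicate 1 of control day 2 lay at -2.79 on the first principal component of all 28 arrays (54.14% of the variance), and the other 13 control arrays lay between -47.55 and -36.48. On the second component (14.31% of the variance), replicate 1 of control day 1 lay at 29.64 and its partner at -7.7. Values that use the control groups are given without these arrays beside the main gene groups they move. In bulk tissue, fewer cells of a type and less RNA per cell cannot be told apart, and this holds for every gene group below.

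RNA quality also differed between the 2 days. Affymetrix arrays carry probe sets at the 3' and the 5' end of a few transcripts, and a larger 3' minus 5' difference marks RNA that is more degraded or less fully copied. Averaged over Actb, Gapdh and Pcx, this log2 difference was 2.71 and 2.733 on day 1 of CLA and 1.877 and 1.78 on day 2. Both CLA arrays of day 1 thus lay above both of day 2. The mean CLA difference between the days was -0.893, made up of -1.28 for Actb, -0.50 for Gapdh and -0.90 for Pcx. In the control groups the same measure was 3.033 and 1.64 on day 1 and 2.067 and 1.923 on day 2, a mean difference of -0.342 with overlapping arrays. The value of 3.033, from replicate 1 of control day 1, was the highest of all 28 arrays. Of the other transcripts with such probe sets, Tfrc gave a mean difference between the days of -0.025 under CLA and 0.06 in control, and 18S rRNA gave -0.4 and -0.845. Their 5' probe sets averaged 2.794 and 4.348 over the arrays, against 6.885 or more for Actb, Gapdh and Pcx. Tfrc was thus close to the lowest array signals (1.9 to 2.11) and could hardly show such a shift. The larger shift under CLA was seen for the 3 averaged transcripts. The remaining 20 arrays of the series ranged from 1.337 to 2.597. With this measure as a covariate, 2341 genes were called in the CLA comparison instead of 3058, and 2037 were called in both fits. The slope of the covariate rests on differences between arrays of the same group, which were small in both CLA groups. Since the measure itself separated the 2 CLA days, RNA quality and day cannot be told apart by this fit.

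**Figure D1:**
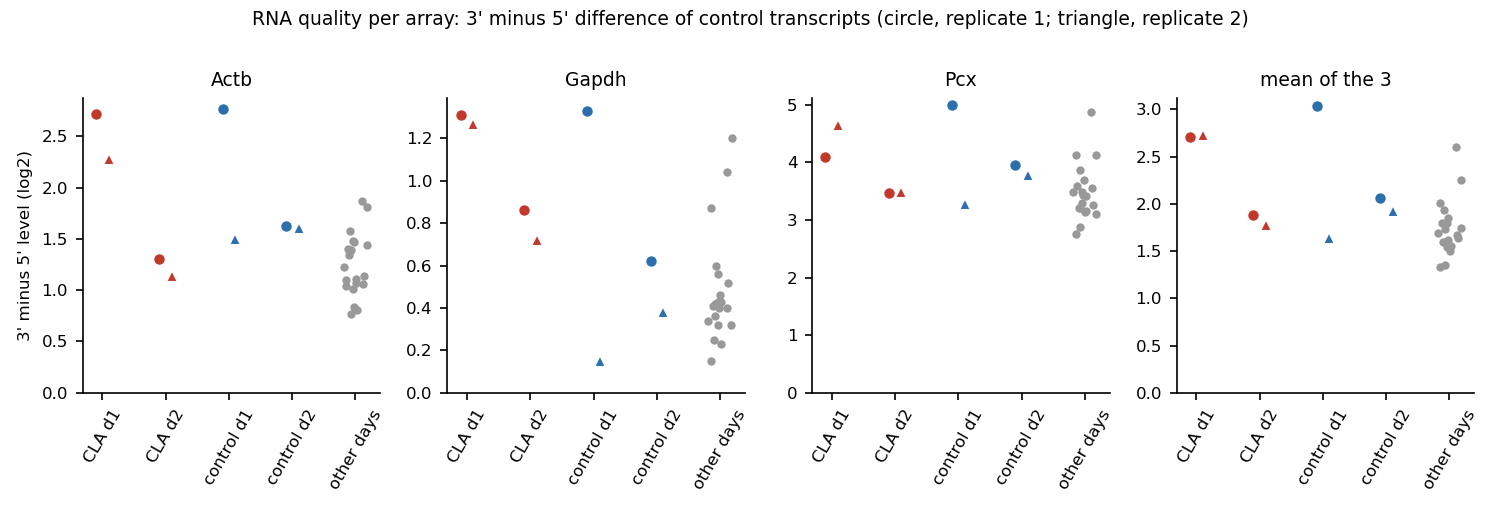
Each point is 1 array; the vertical axes give its 3' minus 5' log2 difference for Actb, Gapdh, Pcx and their mean, and the horizontal axes its group (d1 and d2 are days 1 and 2). For the mean, the CLA arrays of day 1 (2.71 and 2.733) lie above those of day 2 (1.877 and 1.78), and the control arrays of day 1 are far apart (3.033 and 1.64).

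Between day 1 and day 2 of CLA, 3058 of 18195 genes (16.8%) were called. Of these, 1685 rose (9.26% of genes tested) and 1373 fell (7.55%). Those shares are the background for the list counts below, and a count near them says little about a list. The lists and their members were chosen with earlier results of these data known. A count above the shares is therefore a description and not independent evidence. For 3047 of the called genes the 2 arrays of one day lay wholly on one side of the 2 arrays of the other. With 2 arrays a day the call itself nearly ensures this, so the count adds no separate evidence. The median change was 1.03 among the genes that rose and -0.77 among those that fell, beside -0.07 over all genes. A called change of at least 2-fold was seen in 888 rising (4.88%) and 395 falling genes (2.17%), and one of at least 4-fold in 151 and 55. The 10 largest falls named by size included 4 chaperone genes (Hspa1a, Hspa1b, Dnaja4 and Dnajb1), the stress response gene Ppp1r15a, and Il6, Cxcl2 and Ptx3. The 10 largest rises included the cell cycle genes Rrm2 and Birc5 and the macrophage products Mmp12 and Arg1. The split into rises and falls depended on the scaling: after each array was centred on its median, 1883 rose and 1080 fell, and after quantile normalisation 1495 rose and 1552 fell. When the spread was estimated from the 8 arrays of days 1 and 2 alone (the 8-array fit), 719 genes were called, and without replicate 2 of CLA day 2, 1988 were.

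Promoter sequences are shown for genes of 3 groups: heat shock proteins, ATF4 targets and replication genes. Dnaja4, a co-chaperone outside the heat shock list, is shown beside its partners. They are RefSeq sequence of the mouse build GRCm38.p6, written 5' to 3' on the strand of the gene, from windows of 250 bases before to 50 bases after the annotated start. Capitals mark the matched motif, either as spelled or as its reverse complement.
Hspa1a, chr17:34972238-34972275, minus strand: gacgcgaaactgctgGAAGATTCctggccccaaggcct
Hspb1, chr5:135887787-135887844, plus strand: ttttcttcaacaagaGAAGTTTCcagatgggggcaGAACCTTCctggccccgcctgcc
Dnaja4, chr9:54699454-54699529, plus strand: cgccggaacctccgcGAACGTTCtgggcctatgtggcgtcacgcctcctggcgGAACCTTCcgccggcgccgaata
Hspd1, chr1:55088044-55088091, minus strand: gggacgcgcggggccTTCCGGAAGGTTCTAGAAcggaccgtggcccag
Asns, chr6:7693210-7693247, minus strand: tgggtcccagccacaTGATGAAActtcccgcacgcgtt
Chac1, chr2:119351034-119351071, plus strand: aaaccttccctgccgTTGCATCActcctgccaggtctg
Mcm5, chr8:75109341-75109382, plus strand: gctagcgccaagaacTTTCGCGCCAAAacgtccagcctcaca
Mcm6, chr1:128359730-128359830, minus strand: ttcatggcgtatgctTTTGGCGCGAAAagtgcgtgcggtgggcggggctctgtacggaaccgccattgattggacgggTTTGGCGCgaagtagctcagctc

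The heat shock element, bound by heat shock factor 1, was searched as GAANNTTC or TTCNNGAA. It was present in 11 of the 13 heat shock genes with a window (84.6%) and in 17% of all 27025 windows. The Hspd1 run holds overlapping matches, and the Hspb1 and Dnaja4 windows each show 2 separate matches. The composite element of ATF4 and C/EBP factors was searched on both strands as TGATGNAA, and it was present in 7 of 21 integrated stress response genes (33.3%) and in 4.51% of all windows. In Chac1 it lies on the opposite strand. E2F sites were searched on both strands as TTTCCCGC, TTTGGCGC, TTTCGCGC or TTTGCCGC, and they were present in 6 of 20 cell cycle genes (30%) and in 2.6% of all windows. These matches describe letters in the windows and do not show that a factor was bound. Only genes with a match before the annotated start were shown above. Dnajb1 had no heat shock element in its window, and Ddit3 and Mthfd2 had no composite element.

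The chaperones of the cytosol fell together. Of 16 measured genes for cytosolic heat shock proteins and their helpers, 15 fell (against 7.55% of all genes), 1 was not called, and the median change was -1.90. On day 1 the same genes had a median 2.23 above control, and on day 2 a median 0.35 above it (0.45 without replicate 1 of control day 2 and 0.10 without replicate 2). The median over all genes was -0.07. With the RNA quality covariate, and in the 8-array fit, 15 heat shock genes were called down.

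Hspa1a, the inducible HSP70 chaperone, read 10.44 and 10.52 on day 1 of CLA and 6.16 and 5.27 on day 2. The control arrays read 4.67 and 4.6 on day 1 and 5.17 and 4.14 on day 2. Both day 1 CLA arrays were thus far above all the others, and both of day 2 still lay above every control array. The fall was 4.76 on the log2 scale (SE 0.27, adjusted p = 2.12e-09), a factor of 27.2. Its near-identical neighbour Hspa1b fell by 3.46 on the log2 scale (SE 0.37, adjusted p = 4.37e-06). The probes of this pair may share signal, and their changes are not independent.

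Dnaja4, a DnaJ co-chaperone of HSP70 and among the genes with the largest falls, read 9.05 and 9.16 on day 1 and 5.4 and 5.21 on day 2. Control arrays read between 5.46 and 5.93 on both days. The day 2 CLA arrays were lower than every control array. The fall was 3.80 on the log2 scale (SE 0.18, adjusted p = 4.26e-10), a factor of 13.9. Dnajb1, the DnaJ protein that feeds HSP70, went from 12.1 and 12.28 to 9.42 and 8.9 (change -3.03, SE 0.21, adjusted p = 3.16e-08). Hsph1, the nucleotide exchange factor HSP110, went from 12.5 and 12.65 to 10.06 and 9.75 (change -2.67, SE 0.17, adjusted p = 8e-09). Those day 2 levels of Hsph1 stayed above all 4 control arrays, which ran from 8.75 to 9.38.

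The size of the fall varied among the other chaperones. Hspb1, the small heat shock protein HSP27, read 13.75 and 13.89 on day 1 and 11.54 and 12.08 on day 2 (change -2.01, SE 0.32, adjusted p = 0.000243). Hspd1, the mitochondrial HSP60 that the list also holds, read 12.71 and 12.81 and then 11.46 and 11.49 (change -1.28, SE 0.13, adjusted p = 2.19e-06). Hspa8, the constitutive member of the HSP70 family, fell by 0.81 on the log2 scale (SE 0.13, adjusted p = 0.000269). Of the chaperones named, the constitutive one had the smallest called fall. The member that was not called was Cryab, the small chaperone alpha-B crystallin, with 12.67 and 12.85 on day 1 and 12.44 and 11.97 on day 2 (change -0.56, adjusted p = 0.234).

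**Figure D2:**
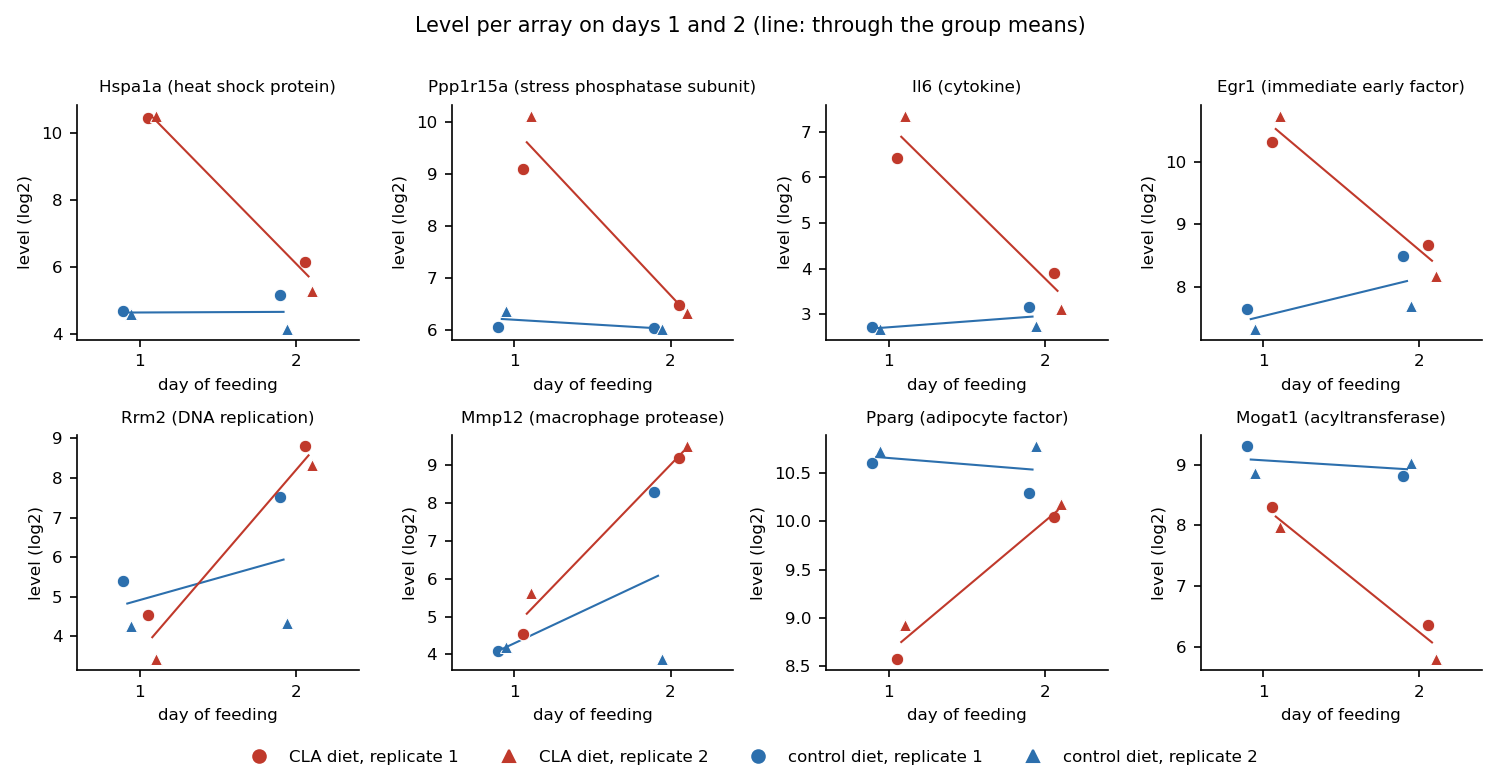
Log2 level of 8 genes (vertical axes) on days 1 and 2 of feeding (horizontal axes) for both diets, 1 point per array, 2 arrays per group and lines through the group means. Hspa1a falls from 10.44 and 10.52 on day 1 of CLA to 6.16 and 5.27 on day 2, while Rrm2 rises from 4.54 and 3.42 to 8.81 and 8.33 and reads 7.53 and 4.35 on control day 2.

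The integrated stress response fell in a large share of its genes. Of 23 measured genes, 13 fell, none rose, and the median change was -0.83. Their median was 1.28 above control on day 1 and 0.24 above it on day 2 (0.06 without replicate 2 of control day 2). In the fit of the 8 arrays of days 1 and 2 alone, 7 of the 13 were called.

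Ppp1r15a (GADD34), which dephosphorylates eIF2 and ends the translation block, read 9.1 and 10.13 on day 1 of CLA and 6.48 and 6.33 on day 2. Its control arrays read from 6.01 to 6.35. On day 2, 1 CLA array lay inside the control range and the other just above it. The change was -3.21 (SE 0.3, adjusted p = 1.63e-06). Trib3, a pseudokinase that feeds back on ATF4, went from 8.13 and 8.03 to 5.48 and 4.89 (change -2.9, SE 0.29, adjusted p = 2.42e-06). Ddit3, the stress factor CHOP, went from 8.8 and 9.67 to 6.88 and 7.03 (change -2.28, SE 0.23, adjusted p = 2.19e-06). Another probe set of Ddit3 gave -0.22.

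Asns, asparagine synthetase, went past its control level. It read 10.44 and 11.09 on day 1 of CLA against 9.87 and 9.63 in control, and 8.73 and 8.55 on day 2 against 9.6 and 9.84. The CLA arrays were above control on day 1 and below control on day 2. Its change was -2.12 (SE 0.18, adjusted p = 5.96e-07). Chac1, which degrades glutathione, differed between its day 1 arrays (7.44 and 8.58) and read 6.03 and 6.32 on day 2 (change -1.83, SE 0.27, adjusted p = 0.000104). Fgf21, a stress hormone, was even less even on day 1, with 5.42 and 7.79, and read 4.39 and 4.58 on day 2 (change -2.12, SE 0.44, adjusted p = 0.00224). Mthfd2, the mitochondrial folate enzyme, fell by 1.77 on the log2 scale (SE 0.25, adjusted p = 7.48e-05).

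Atf4 itself was not called, with a change of -0.62 (adjusted p = 0.084). The cystine transporter gene Slc7a11 had a change of 0.01. Among 16 aminoacyl-tRNA synthetases, the enzymes that load amino acids onto tRNA, 7 fell and the median change was -0.53. Yars, for tyrosine, had the largest called fall of them, by 1.07 on the log2 scale (SE 0.22, adjusted p = 0.00233). This count was 4 without replicate 2 of CLA day 1 or without replicate 2 of CLA day 2, and 0 in the 8-array fit.

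Oxidative stress genes gave a mixed picture. Of 15 targets of NRF2, the factor that answers oxidants and electrophiles, 7 fell and none rose, with a median change of -0.62. Gclm, for glutathione synthesis, fell by 1.61 on the log2 scale (SE 0.29, adjusted p = 0.000721), and the thioredoxin reductase Txnrd1 fell by 1.71 (SE 0.22, adjusted p = 3.66e-05). Hmox1, heme oxygenase 1, was not called, with 8.61 and 10.09 on day 1 and 8.58 and 9.71 on day 2 (change -0.2, adjusted p = 0.864). The Hmox1 arrays of the 2 days overlapped. The count of 7 became 4 with the RNA quality covariate and 3 in the 8-array fit.

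Chaperones of the endoplasmic reticulum divided. Of 19 measured genes, 4 rose and 3 fell, and the median change was 0.07. Ero1a, the oxidase that drives disulfide bond formation there and which is outside that list, read 10.05 and 10.05 on day 1 and 7.61 and 7.36 on day 2, with control arrays from 6.86 to 7.42. On day 2, 1 CLA array lay inside the control range and the other above it. Its change was -2.56 (SE 0.16, adjusted p = 8e-09). In the other direction, Pdia6, a protein disulfide isomerase, rose by 1.05 (SE 0.18, adjusted p = 0.000368). Without replicate 1 of CLA day 1 or replicate 2 of CLA day 2, 2 of the 4 rises were called, and without the latter array 1 of the 3 falls.

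Immediate early genes did not fall as a block. Of 11 genes for AP-1 factors, which pair as Fos and Jun proteins, 6 fell, none rose, and the median change was -0.67. Their median was 2.1 above control on day 1 and 0.99 above it on day 2 (0.54 without replicate 2 of control day 2). Fosl1, which encodes FRA-1, read 7.91 and 8.63 on day 1 and 5.64 and 5.71 on day 2 (change -2.6, SE 0.38, adjusted p = 8.86e-05). Both pairs were above the control arrays, which ran from 3.47 to 4.69. Atf3, a stress-induced repressor, read 8.71 and 9.47 and then 7.78 and 8.24 (change -1.08, SE 0.36, adjusted p = 0.0435). It remained 1.8 above control on day 2, and its call was lost in 10 other settings, among them those without replicate 2 of CLA day 1, replicate 1 of CLA day 2 or replicate 2 of CLA day 2.

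Fos, the partner of Jun in AP-1, was higher in value on day 2 without being called. It read 8.36 and 9.25 on day 1 of CLA and 10.11 and 10.47 on day 2 (change 1.49, adjusted p = 0.0829). On control day 1 it read 6.39 and 5.51, and on control day 2 it read 8.91 and 6.23, a difference of 1.62. Jun had a change of -0.12 (adjusted p = 0.898), although another probe set of Jun gave a called -1.3. Without replicate 2 of CLA day 1, 3 of the AP-1 falls were called instead of 6, and in the 8-array fit 1 was. With the RNA quality covariate 3 falls and 1 rise were called, the rise being Batf (0.82, adjusted p = 0.0422 by limma), which was singled out after its value was seen.

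Egr1, the zinc-finger immediate early factor, read 10.31 and 10.74 on day 1 of CLA and 8.66 and 8.17 on day 2, with control arrays from 7.32 to 8.49. It fell by 2.11 on the log2 scale (SE 0.25, adjusted p = 1.66e-05). Ccn1, a secreted matrix protein of the YAP and serum response programme, read 9.27 and 9.55 and then 6.89 and 7.22 (change -2.35, adjusted p = 3.32e-06). In the list of 19 EGR, NR4A and other immediate early genes to which both belong, 5 fell and none rose, and the median change was -0.34. Without replicate 2 of CLA day 1, 3 of the 5 were called, as also with the RNA quality covariate.

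Some cytokine genes were among the largest falls. Il6, the cytokine interleukin 6, read 6.43 and 7.36 on day 1 of CLA and 3.91 and 3.11 on day 2. Its control arrays read 2.71 and 2.67 on day 1 and 3.16 and 2.73 on day 2, so 1 array of day 2 of CLA lay inside the control range and the other above it. The change was -3.38 (SE 0.25, adjusted p = 9.05e-08). Of the 17 genes of the interleukin 6 family and STAT3 feedback, 6 fell, none rose, and the median change was -0.52. Socs3, the inhibitor that STAT3 induces, read 9.94 and 10.16 and then 7.84 and 7.45 (change -2.4, SE 0.36, adjusted p = 0.000119). Ptx3, a secreted pattern recognition protein of the acute phase list, read 10.11 and 10.9 and then 6.43 and 7.35 (change -3.62, SE 0.45, adjusted p = 2.43e-05). Ptx3 stayed above all 4 control arrays, which ran from 4.01 to 5.84.

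Genes of NF-kB subunits and feedback, which answer toll-like receptor and cytokine signals, had a median change of -0.93. Of 15 measured, 6 fell and 1 rose. Relb, a subunit of the noncanonical pathway, fell by 1.47 on the log2 scale (SE 0.33, adjusted p = 0.00447). Of 13 CXC chemokines, mostly attractants of neutrophils and T cells, 5 fell and none rose. Cxcl2, a neutrophil attractant, read 9.26 and 9.02 on day 1 and 5.74 and 5.98 on day 2 (change -3.28, SE 0.54, adjusted p = 0.00027). Cxcl10, induced by interferon, read 10.6 and 11.08 and then 8.09 and 8.24 (change -2.67, adjusted p = 9.5e-05). Of 13 genes of the interleukin 1 family and receptors, 2 fell (beside 7.55% of all genes), none rose, and the median change was -0.30. A count of 2 says little beside that share. Il1b, the cytokine interleukin 1 beta, read 7.41 and 7.07 and then 5.13 and 4.89 (change -2.23, adjusted p = 6.26e-05). Without replicate 2 of CLA day 1, 3 of the 6 NF-kB falls were called, and in the 8-array fit 2.

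The monocyte chemokine Ccl2 did not follow them. It read 10.9 and 11.51 on day 1 of CLA and 10.5 and 10.51 on day 2 (change -0.7, adjusted p = 0.559). Its control arrays read 5.68 and 5.49 on day 1 and 10.09 and 5.92 on day 2, so replicate 1 of control day 2 was near the CLA level. Of 16 CC chemokines and receptors, 4 rose and 1 fell in the CLA comparison. Among the 4 were Ccr2, the receptor for Ccl2 on monocytes (change 1.47, SE 0.4, adjusted p = 0.0147), and Ccl8 (change 1.95, SE 0.59, adjusted p = 0.0297). The count of rises was 1 without replicate 1 of CLA day 1, 1 without replicate 1 of CLA day 2, and 0 without replicate 2 of CLA day 2. In replicate 1 of control day 2 this list had a median 1.98 above control day 1, against 0.23 in replicate 2.

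The cell cycle rose as the stress programmes fell. Of 25 genes of DNA replication and mitosis, 23 rose, none fell, and the median change was 2.42. On day 1 their median was -0.02 from control, and on day 2 it was 1.65 above (2.31 without replicate 1 of control day 2 and 0.93 without replicate 2). Rrm2, the ribonucleotide reductase subunit that supplies DNA precursors, read 4.54 and 3.42 on day 1 of CLA and 8.81 and 8.33 on day 2 (change 4.59, SE 0.64, adjusted p = 6.24e-05), a factor of 24.1. It read 5.4 and 4.26 on control day 1, so no CLA array of day 1 was above both of them. Its other probe sets gave 0.99 and 2.32.

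Pclaf, a PCNA-binding replication factor outside the list, read 5.59 and 5.59 and then 9.59 and 9.63 (change 4.02, SE 0.45, adjusted p = 7.56e-06). The replication licensing helicase rose with it. Mcm5 went from 5.69 and 5.56 to 8.8 and 8.4 (change 2.98, adjusted p = 0.000176), and Mcm6 went from 6.52 and 6.7 to 9.31 and 9.45 (change 2.77, adjusted p = 1.16e-05). Another probe set of each of these helicase genes gave -0.04 and -0.20. Cdk1, the kinase that starts mitosis, went from 4.96 and 4.99 to 8.33 and 7.76 (change 3.07, adjusted p = 8.67e-05). Birc5, survivin of the chromosomal passenger complex, went from 4.09 and 4.09 to 7.69 and 7.2 (change 3.35, adjusted p = 0.000227). Mki67, the proliferation antigen Ki-67, went from 7.32 and 6.35 to 9.72 and 9.23 (change 2.64, SE 0.52, adjusted p = 0.00154).

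The 2 members that were not called were the cell cycle inhibitor Cdkn1a, at 9.47 and 10.08 and then 9.75 and 10.09 (change 0.14, adjusted p = 0.812), and thymidylate synthase, Tyms (change 0.20, adjusted p = 0.534). Cdkn1a encodes p21, a target of p53, and was 1.55 above control on day 1 and 1.25 above it on day 2. With the RNA quality covariate 23 cell cycle genes were called, and in the 8-array fit 9. The same list moved with a control library: its median was 1.37 above control day 1 in replicate 1 of control day 2, and -0.16 in replicate 2.

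**Figure D3:**
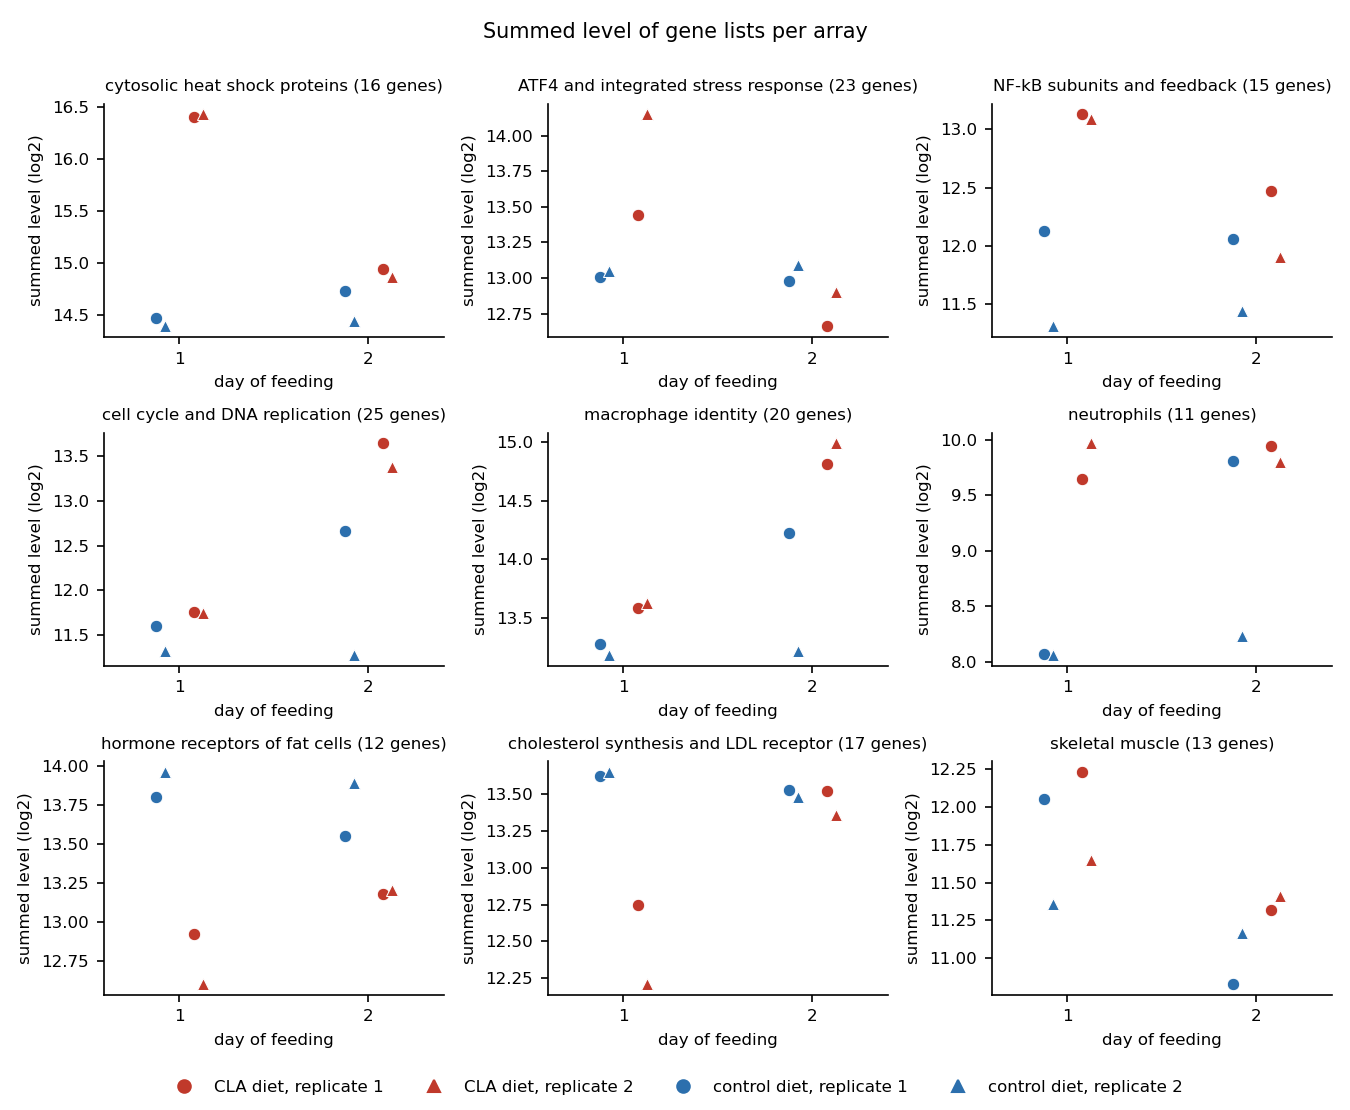
Level of 9 gene lists on each array (vertical axes, log2 of the summed linear signal of the members) by day of feeding (horizontal axes) for both diets, 1 point per array. Heat shock proteins fall from 16.4 and 16.43 on day 1 of CLA to 14.94 and 14.87 on day 2, and cell cycle genes rise from 11.75 and 11.74 to 13.65 and 13.38, with 1 control array of day 2 at 12.66 and the other at 11.27.

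Macrophage genes rose between the days. Of 20 identity genes, 14 rose, none fell, and the median change was 1.24. Their median was 0.45 above control on day 1 and 1.25 above it on day 2, and the latter was 1.86 without replicate 1 of control day 2 and 0.70 without replicate 2. In that replicate 1 the list itself lay a median 1.24 above control day 1, as large as the change under CLA, against 0.10 in replicate 2. Adgre1, which encodes the macrophage marker F4/80, read 7.39 and 8.01 on day 1 of CLA and 9.51 and 10.09 on day 2 (change 2.1, SE 0.26, adjusted p = 2.2e-05). The control arrays of day 1 read 8.03 and 7.97, so neither CLA array of day 1 was above both of them. Cd68, a lysosomal membrane protein of macrophages, read 7.4 and 7.99 and then 9.86 and 10.94 (change 2.71, SE 0.4, adjusted p = 9.72e-05). Itgam, the CD11b integrin chain, rose by 2.56 (SE 0.39, adjusted p = 0.000148). In the 8-array fit 5 of the 14 were called.

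Mmp12, the macrophage elastase, rose by the largest amount of the named macrophage products. It read 4.53 and 5.62 on day 1 of CLA and 9.19 and 9.5 on day 2 (change 4.27, SE 0.77, adjusted p = 0.000714). Its control arrays were 4.08 and 4.2 on day 1 and 8.28 and 3.87 on day 2. Arg1, the arginase of alternatively activated macrophages, read 4.19 and 5.11 and then 8.36 and 8.65 (change 3.85, SE 0.81, adjusted p = 0.00251), with control arrays of 3.51, 3.44, 7.78 and 3.44. Both genes were high in replicate 1 of control day 2 and low in replicate 2.

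Genes of lipid-associated macrophages, which take up lipid from adipocytes, gave 7 rises and 1 fall among 15, with a median change of 0.89. In the 8-array fit 2 rises and no fall of this list were called. The list lay a median 0.53 above control day 1 in replicate 1 of control day 2, against 0.12 in replicate 2. Gpnmb, a glycoprotein of lipid-laden macrophages, read 6.1 and 6.07 and then 7.5 and 8.83 (change 2.08, SE 0.34, adjusted p = 0.00028). Trem2, their lipid receptor, rose by 1.61 (SE 0.3, adjusted p = 0.001), and another probe set of it gave -0.05. Atp6v0d2, a proton pump subunit, read 4.39 and 4.9 and then 7.83 and 7.38 (change 2.96, adjusted p = 3.2e-05). Acp5, a phosphatase on the same list, fell by 1.47 on the log2 scale (SE 0.33, adjusted p = 0.00413). Of 15 lysosome and proton pump genes, 7 rose and none fell. That count was 3 without replicate 1 of CLA day 1 or replicate 2 of CLA day 2, 4 with the RNA quality covariate, and 0 in the 8-array fit.

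Markers of other cells in the tissue moved less. None of 11 neutrophil genes was called, and their median change was -0.04. Their summed level was 9.65 and 9.97 on day 1 of CLA and 9.94 and 9.8 on day 2, against 8.07 and 8.06 on control day 1 and 9.81 and 8.23 on control day 2. The granule gene Mpo stood at 3.6 and 3.6 and then 3.54 and 3.63, below the array medians, so it says little about these cells. S100a8 of the same list lay 3.30 above control day 1 in replicate 1 of control day 2. Of 9 T cell genes, 2 rose, among them the interleukin 7 receptor Il7r (change 2.5, SE 0.48, adjusted p = 0.00127). Il7r lay 2.81 above control day 1 in replicate 1 of control day 2, more than its change under CLA. The T cell receptor subunit Cd3e had a change of -0.17. Of 8 B cell genes, 2 rose, with Blnk at 1.88 (SE 0.38, adjusted p = 0.00169) and the B cell receptor subunit Cd79a at -0.18. Such counts of 2 say little for lists of 9 and 8 genes, beside the 9.26% of all genes that rose. None of 8 mast cell genes was called. Of 15 endothelial genes, 3 fell (beside 7.55% of all genes) and none rose, with a median change of -0.07. The count of falls was 2 with the RNA quality covariate and 1 in the 8-array fit. The junction gene Cldn5 fell by 1.79 on the log2 scale (SE 0.39, adjusted p = 0.00338), and Pecam1 had a change of 0.04.

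Skeletal muscle genes, which mark carry-over of adjacent tissue, had a median change of -0.60 with none of 13 called, beside -0.69 in the control groups. Interferon-induced genes gave 6 rises and 1 fall among 15 and a median change of 0.62, with 0.70 in the control groups. Oas1a, an antiviral synthetase, rose by 1.67 (SE 0.32, adjusted p = 0.00124). In replicate 1 of control day 2 the interferon list had a median 1.29 above control day 1, and in replicate 2 0.31, and no rise was called in the 8-array fit. The part of these cell types in the other changes was not tested.

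Adipocyte genes differed in how far they moved between the days. Of 20 identity genes, 6 rose and 1 fell, and the median change was 0.10. Their median was -1.10 from control on day 1 and -0.58 from it on day 2, and the latter was -0.90 without replicate 1 of control day 2 and -0.27 without replicate 2. The list itself lay a median -0.36 from control day 1 in that replicate 1 and 0.21 in replicate 2, so the distance from control moved with the control arrays as well. Pparg, the master regulator of fat cells, read 8.57 and 8.93 on day 1 of CLA and 10.04 and 10.18 on day 2 (change 1.36, SE 0.18, adjusted p = 3.63e-05). Control arrays read 10.6 and 10.73 on day 1 and 10.29 and 10.78 on day 2. Day 2 of CLA was thus closer to control and still below every control array. Cebpa, its partner in differentiation, read 9.08 and 9.16 and then 10.11 and 10.62 (change 1.25, adjusted p = 0.00539). Lep, which encodes the hormone leptin, read 7.76 and 8.04 and then 9.26 and 9.94 (change 1.7, SE 0.32, adjusted p = 0.00101). Without replicate 2 of CLA day 2, 3 of the 6 rises were called, and Cebpa was not among the genes called.

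Several products of mature adipocytes showed no called difference between the days. Adipoq had a change of -0.05, the fatty acid binding protein gene Fabp4 one of 0.17, and the lipoprotein lipase gene Lpl one of 0.03. Slc2a4, the insulin-regulated glucose transporter GLUT4, had a change of -0.10 and stood -2.25 from control on day 1 and -2.15 on day 2. Its low level on day 1 was therefore also its level on day 2. Of 19 fatty acid synthesis genes, 3 rose and 3 fell, beside 9.26% and 7.55% of all genes. Fasn, fatty acid synthase, had a change of -0.68 (adjusted p = 0.129), the desaturase Scd1 one of -0.38, and their regulator Srebf1 one of 0.95 (adjusted p = 0.0835). Acaca, acetyl-CoA carboxylase, fell by 1.22 on the log2 scale, and this call was lost without replicate 2 of CLA day 1. The count of falls was 0 without that array and 1 without replicate 1 of CLA day 2, and the count of rises was 1 without replicate 2 of CLA day 1.

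Genes that store and release triglyceride rose in part. Of 11 genes of triglyceride and glycerol synthesis, 5 rose and 1 fell, and their median was -1.25 from control on day 1 and -0.54 on day 2 (-0.83 without replicate 1 of control day 2). Agpat2, which makes phosphatidic acid, rose by 1.68 (SE 0.32, adjusted p = 0.00113). Mogat1, which acylates monoglyceride, moved the other way: 8.31 and 7.98 on day 1 and 6.35 and 5.79 on day 2 (change -2.08, SE 0.25, adjusted p = 2e-05), with control arrays from 8.82 to 9.31. It thus lay further from control on day 2. Of 9 lipolysis genes, 4 rose and none fell. G0s2, an inhibitor of the triglyceride lipase ATGL, rose by 1.79 (SE 0.27, adjusted p = 0.000111). Without replicate 1 of CLA day 1 or replicate 2 of CLA day 2, 2 of the 5 synthesis genes were called, and without replicate 2 of CLA day 1 or replicate 1 of CLA day 2, 2 of the 4 lipolysis genes.

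Hormone receptors of fat cells rose from a low point. Of 12 measured, 6 rose, none fell, and the median change was 0.63. Oxtr, the oxytocin receptor, read 5.43 and 5.12 on day 1 of CLA and 7.66 and 7.29 on day 2, against 8.07 and 8.88 and then 7.78 and 7.82 in control. Day 2 of CLA was just below its control arrays. The change was 2.2 (adjusted p = 6.61e-05), and another probe set gave 0.07. Tshr, the thyrotropin receptor, rose by 2.02 (SE 0.32, adjusted p = 0.000193), and Mc2r, the corticotropin receptor, by 1.74 (SE 0.21, adjusted p = 2.21e-05). Tmem120a, a membrane protein of adipocyte differentiation, read 6.75 and 6.76 and then 9.29 and 9.89 (change 2.83, SE 0.39, adjusted p = 5.16e-05). Ppargc1b, a coactivator of mitochondrial genes, read 5.52 and 4.8 and then 7.71 and 7.44, within its control range of 7.48 to 7.8 or just below it (change 2.42, adjusted p = 2.42e-06).

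Genes of cholesterol synthesis and the LDL receptor rose in part. Of 17 genes, 6 rose, none fell, 11 were not called, and the median change was 0.69. The median against control was -0.96 on day 1 (-0.41 without replicate 2 of control day 1) and 0.01 on day 2, and 2 genes were still called below control on day 2. Hmgcs1, the HMG-CoA synthase, rose by 1.5 (SE 0.29, adjusted p = 0.0012). Dhcr7, the last enzyme of the pathway, read 7.35 and 6.93 and then 8.7 and 8.65, against control arrays from 8.49 to 8.92 (change 1.53, adjusted p = 0.00137). Both day 2 CLA arrays lay inside that range. The 8-array fit called 3 of the 6.

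Breakdown of branched-chain amino acids, a fuel and lipid source of fat cells, fell further. Of 18 genes, 9 fell and 1 rose, and the median change was -0.61. Their median was -0.97 from control on day 1 and -1.35 on day 2 (-1.52 without replicate 1 of control day 2 and -1.19 without replicate 2). The list itself lay a median -0.37 from control day 1 in that replicate 1 and 0.16 in replicate 2. The difference between the CLA change and the control change was called downward for 2 of the 18 genes, beside 1.71% of all genes. Pccb, a subunit of propionyl-CoA carboxylase, fell by 1.09 on the log2 scale (SE 0.2, adjusted p = 0.000695), and Bckdha, of the branched-chain dehydrogenase, by 1.36 (SE 0.36, adjusted p = 0.0119). Bcat2, the transaminase that starts the pathway, rose by 1.72 (SE 0.54, adjusted p = 0.036), and this call was lost without replicate 1 of CLA day 1 and without replicate 2 of CLA day 2. In the 8-array fit 1 of the 9 falls was called. Among 16 genes of the citrate cycle and pyruvate entry, 5 fell and 1 rose. Pdhb, of pyruvate dehydrogenase, read 12.42 and 12.36 and then 11.02 and 10.76, with control arrays from 12.05 to 12.27 (change -1.5, adjusted p = 1.58e-06). The citrate cycle count was 2 without replicate 2 of CLA day 1 or replicate 2 of CLA day 2.

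**Figure D4:**
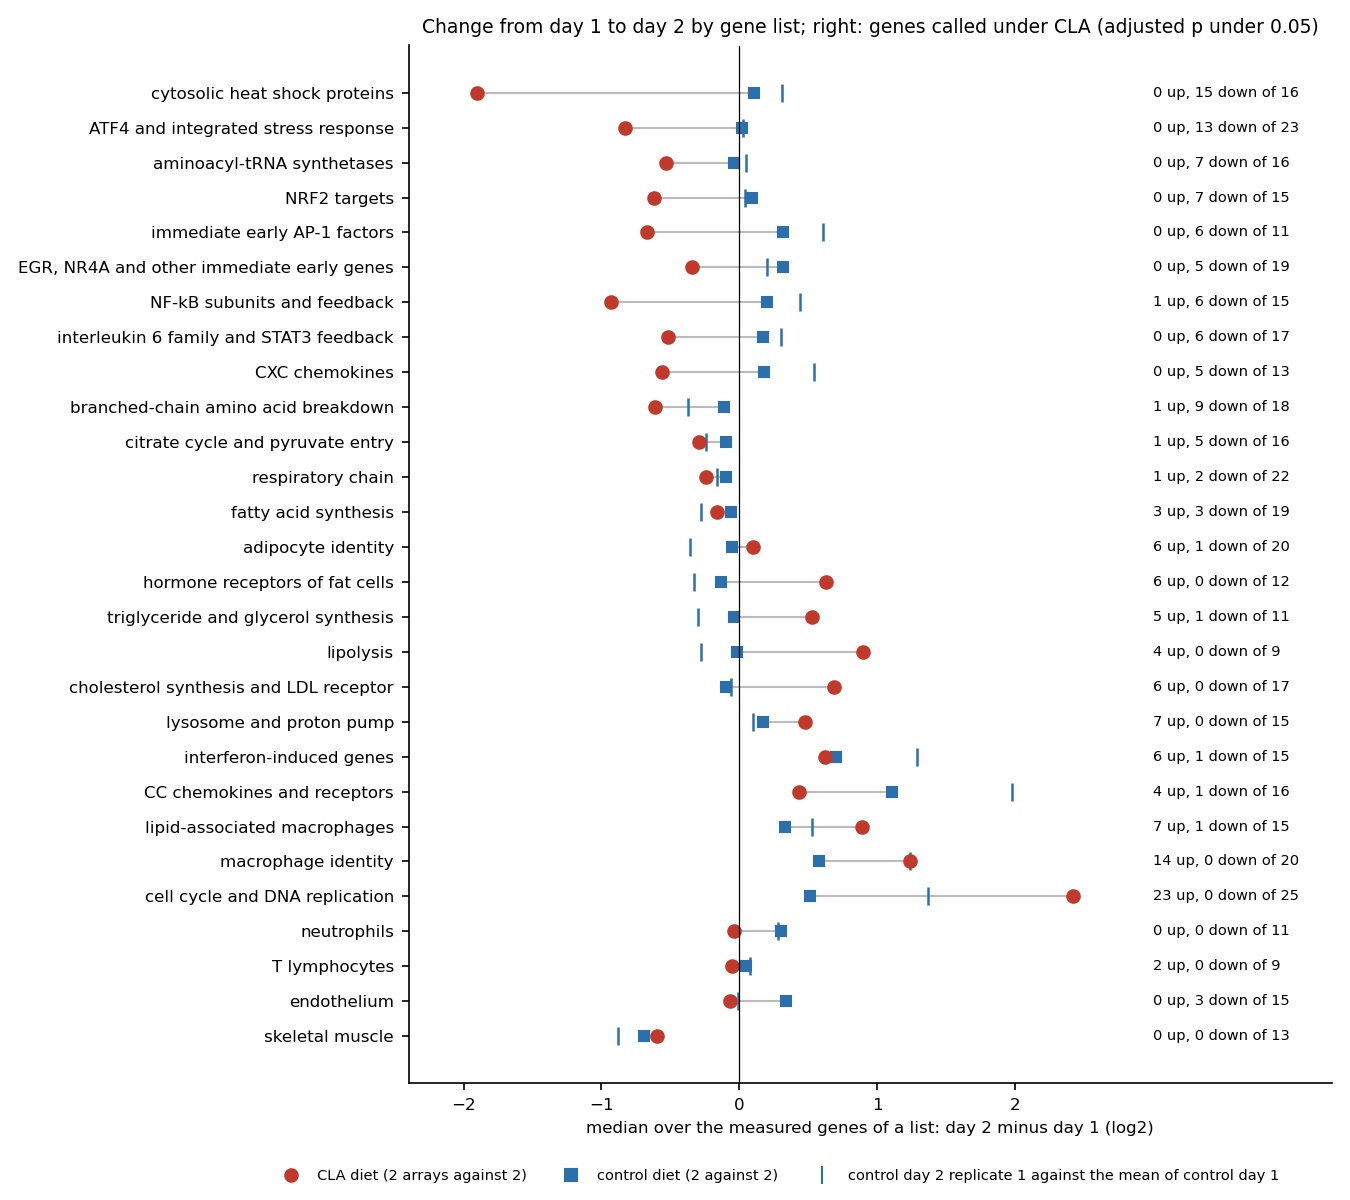
Median log2 change from day 1 to day 2 over the measured members of each gene list (horizontal axis; lists on the vertical axis), for CLA arrays, for control arrays, and for replicate 1 of control day 2 alone (tick), with counts of called members at the right. Of the lists shown, heat shock proteins have the lowest CLA median (-1.90) beside 0.11 in control, and cell cycle genes the highest (2.42) beside 0.51 in control.

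In the control groups, no gene was called between day 1 and day 2 (0% of 18195), and the smallest adjusted p by limma was 0.599. At an unadjusted p below 0.05 there were 840 genes (4.62%). A 2-fold difference without a test was seen upward in 89 genes (0.489%) and downward in 5 (0.0275%). The control medians were 0.11 for heat shock proteins, 0.02 for the integrated stress response, 0.32 for AP-1 factors, 0.51 for the cell cycle and 0.58 for macrophage identity. For the 3 of these lists with a negative CLA median the control median was thus opposite in sign, and for the other two it had the same sign.

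The shared sign lay mostly in 1 library. Replicate 1 of control day 2 was above all 13 other control arrays for 747 of the genes that rose under CLA (44.3% of them), beside 12.5% of all genes tested. Replicate 2 was above all of them for 0.534% of those risers, beside 2.59% of all genes. Against the mean of control day 1, the median of the risers was 0.33 in replicate 1 and -0.01 in replicate 2. For the genes that fell under CLA both replicates had a median of -0.07. With replicate 1 as the only control array of day 2, and its spread assumed to be like that of the other groups, 287 genes were called in the control comparison, 284 of them upward. Of those 287, 244 were also called under CLA (85% of the control calls and 7.63% of the CLA calls in that fit), 229 of them in the same direction. What sets this library apart was not tested.

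The difference between the CLA change and the control change was tested directly. It was called for 654 genes (3.59%), 342 upward (1.88%) and 312 downward (1.71%). Without replicate 1 of control day 2 there were 696 upward and 340 downward, and without replicate 2 there were 160 upward and 324 downward. Without replicate 1 of control day 1 there were 328 upward and 380 downward, and without replicate 2 of that day 292 and 242. In the 8-array fit 5 were called, none upward and 5 downward, and with array weights 74 upward and 121 downward. Of the 16 heat shock genes, 15 were called downward, as they were without replicate 1, and 16 without replicate 2. For Hspa1a the difference of changes was -4.79 (adjusted p = 5.16e-07), for Dnaja4 -3.6 (adjusted p = 2.54e-07), for Il6 -3.64 (adjusted p = 9.79e-06) and for Ptx3 -4.32 (adjusted p = 0.000693). Of the 23 integrated stress response genes, 9 were called downward.

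For the genes that rose, the answer depended on the control library. Of 25 cell cycle genes, 9 were called upward in the difference of changes, 21 without replicate 1 of control day 2, 2 without replicate 2, and 1 without replicate 1 of control day 1. For Rrm2 the difference was 3.48 (adjusted p = 0.0367), 5.07 without replicate 1 of control day 2, 1.89 (adjusted p = 0.119) without replicate 2, and 2.91 (adjusted p = 0.112) without replicate 1 of control day 1. Of 20 macrophage identity genes, 2 were called upward, 10 without replicate 1 of control day 2, and none without replicate 2, where 2 were called downward. Without replicate 2 of control day 1 the count was 1, and without replicate 1 of that day 3. For Mmp12 the difference was 2.33 (adjusted p = 0.307), 4.54 (adjusted p = 1.36e-05) without replicate 1 of control day 2, and 0.13 without replicate 2. Some adipocyte genes were called in the fit of all arrays whichever control array was left out, although not in the 8-array fit. Pparg gave 1.49 (adjusted p = 0.00192) and between 1.25 and 1.74 in those fits, Oxtr 2.88 (adjusted p = 0.000892) and between 2.47 and 3.28, and Tmem120a 2.9 (adjusted p = 0.0048) and between 2.19 and 3.6. Lep gave 2.06 (adjusted p = 0.0129), and 1.56 (adjusted p = 0.0638) without replicate 2 of control day 1.

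**Figure D5:**
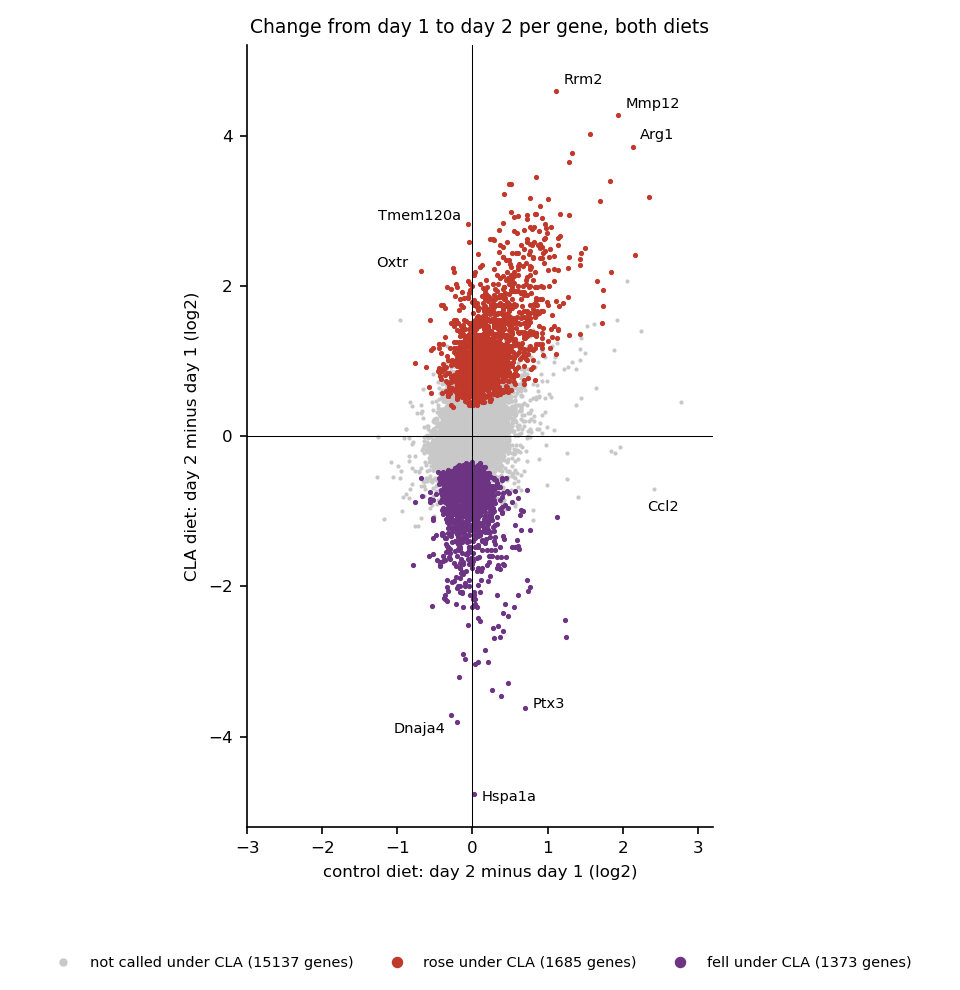
Each point is 1 gene; the horizontal axis is the log2 change from day 1 to day 2 in control arrays and the vertical axis that in CLA arrays, with the 1685 called rises and 1373 called falls under CLA in red and purple. Hspa1a lies at 0.02 and -4.76, and Mmp12 at 1.94 and 4.27.

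Later days place the switch in the time course, as CLA minus control medians of the same lists. The heat shock list, at 2.23 on day 1 and 0.35 on day 2, was at 0.56, 0.49, 0.12, 0.18 and 0.09 on days 3, 4, 7, 10 and 17. The other stress lists did not all follow it. The integrated stress response list (0.24 on day 2) was then at 0.77, 0.67, 0.48, 0.46 and 0.38. The AP-1 list (0.99) was at 1.17, 1.2, 1.15, 1.22 and 1.29. The NF-kB list was at 0.40 on day 2 (0.53 without replicate 1 of control day 2, 0.16 without replicate 2). It was then at 0.83, 0.7, 0.69, 0.52 and 0.49. The NRF2 list was at 0.81 on day 1 and 0.20 on day 2 (0.12 without replicate 1 of control day 2, 0.27 without replicate 2). It lay between -0.04 and 0.11 on the later days. The cell cycle list, at -0.02 and 1.65, was at 2.93, 3.0, 1.42, 1.7 and 1.57. The macrophage identity list, at 0.45 and 1.25, was at 1.98, 2.42, 2.3, 2.25 and 2.72. Adipocyte identity, at -1.10 and -0.58, was at -1.35, -1.24, -1.1, -1.12 and -1.16. The heat shock list was thus highest on day 1 and the cell cycle list on days 3 and 4. The day 2 medians depend on the control arrays, as given above. Without replicate 1 of control day 2, the integrated stress response list was at 0.23 and the AP-1 list at 0.97 on that day. These medians share the CLA arrays of days 1 and 2 with the comparison above and are given as values only.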

How the data were processed

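Per the labels' protocols, pooled retroperitoneal fat pads gave Trizol-extracted total RNA, of which 15 microgram was made into biotinylated cRNA for Affymetrix arrays. The values are the authors' deposited log2 probe-set signals. RMA is named in the submitters' processing notes, and its version is not given in the sources used here. Of 45101 probe sets, 34958 name 1 gene, 932 several and 9211 none. Each gene was represented by its brightest probe set on average over the 28 arrays. A group-means model over all 14 groups was fitted with limma 3.58.1 (R 4.3.3) with empirical Bayes (14 residual degrees of freedom, 4.74 prior), and p-values were adjusted by Benjamini-Hochberg over 18195 genes. All groups entered the fit so that they shared 1 estimate of the spread. With 2 arrays a group, the number of arrays limits the precision. Since the groups of days 1 and 2 had the widest spread between arrays, SEs and adjusted p-values from the shared estimate can be too small for them. The control comparison shares no arrays with the CLA comparison, but it shares that estimate.

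The gene lists and members were chosen with earlier results of these data known. The genes named were the 10 largest called rises and falls without overlap between the CLA arrays, the 5 largest of the difference of changes, the 4 largest called changes of each list (or 2 by level where fewer than 2 were called), and a set of 30 always given. Acp5, Atf4, Cd3e, Cd79a, Cdkn1a, Chac1, Cryab, Fgf21, Hspa8, Hspb1, Hspd1, Mcm5, Mcm6, Mpo, Mthfd2, Pecam1, Slc7a11 and Tyms were added after their values were seen. Alternatives were other scalings, probe-set rules, a filter on dim probe sets, fits with fewer arrays, a replicate block, RNA quality as a covariate, array weights, an intensity trend and leaving out each array. The fit was tested on simulated data for the CLA comparison with 200 of 18195 genes changed: 70% of changes of 1 and 97% of changes of 2 on the log2 scale were recovered, and 3.47% of calls were false. The simulated arrays were independent, with the same spread in every group. The measured arrays of days 1 and 2 spread more widely and their deviations were correlated, so these rates need not hold for them. Promoters were RefSeq windows matched by gene (GRCm38.p6, 618 of 787 genes). Tables and figures were made with Python 3.11.15, numpy 2.4.6, pandas 2.3.3 and matplotlib 3.10.9.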

Additional observations from a re-analysis of the deposited data

Results flagged for a closer look

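The change from day 1 to day 2 differed between CLA and control arrays for 342 genes upward and 312 downward, by a limma test of the difference itself. Among the genes that rose more under CLA, the differences were 3.48 for Rrm2, 2.87 for Tcf19, a factor of the G1 to S transition, and 2.85 for Birc5. For adipocyte genes they were 2.9 for Tmem120a and 2.88 for Oxtr. Among the genes that fell more under CLA, the differences were -4.79 for Hspa1a, -4.32 for Ptx3, -3.84 for Hspa1b, -3.75 for Cxcl2 and -3.92 for Cxcl10. A further 66 named genes had a called difference of changes. The differences for Rrm2 and Birc5 rest on control arrays that disagree, since replicate 1 of control day 2 read 7.53 for Rrm2 and 6.49 for Birc5, and replicate 2 read 4.35 and 3.64.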

How the results depend on the processing

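The count of genes called between days 1 and 2 of CLA (3058) was 719 in the 8-array fit, 690 with only the 4 arrays compared, 1778 with array weights, 1283 with an added 2-fold limit and 1383 with that limit and no test. Leaving out 1 array gave 1988 (without replicate 2 of CLA day 2) to 3311. The control count (0) ranged from 0 to 287 when 1 array was left out, the highest being without replicate 2 of control day 2, and 94 genes passed 2-fold without a test. The difference of changes (654) was called for 5 genes in the 8-array fit, 195 with array weights and 1182 at 2-fold without a test, and for 475 to 1036 with 1 array left out, the highest being without replicate 1 of control day 2. Genes called under both diets numbered 0 to 244 with 1 array left out. The most variable probe set turned the sign of Decr1 (0.16) and Sel1l (0.02), since it is another probe set. The cause of the other shifts was not tested. Arrays share only a replicate number: their deviations correlated at 0.344 to 0.623 within days 1 and 2, and at -0.095 to 0.623 over all 14 groups, where 56 of 91 pairs exceeded 0.1. With the replicate block 3826, 0 and 979 genes were called for CLA, control and difference, and 3145, 0 and 460 in the 8-array fit with the block. That fit called 23 of 25 cell cycle, 14 of 20 macrophage identity and 7 of 16 tRNA synthetase genes, against 9, 5 and 0 without the block, and 5 named genes lost their call in it, against 89. Of 168 named genes called, 66 were called in every setting. Alternatives added after seeing the data were the 8-array fit with the block, control arrays left out of the CLA comparison and CLA arrays left out of the control comparison, and, for genes called under both diets, the RNA quality covariate.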

Other observations

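Genes outside the lists described above moved in both directions. Pfkfb3, the enzyme that makes the allosteric activator of glycolysis, read 7.64 and 7.14 on day 1 of CLA and 9.65 and 9.61 on day 2, against 10.62 and 10.22 and then 9.92 and 10.41 in control (change 2.24, limma adjusted p = 2.19e-06). Another probe set of it gave 0.12. Chka, choline kinase, read 7.91 and 8.87 and then 5.51 and 5.25, against 4.31 and 4.14 and then 4.72 and 4.14 in control (change -3.01, limma adjusted p = 2.02e-06). Prr32, among the largest falls, read 8.0 and 8.48 and then 4.46 and 4.6 (change -3.71, limma adjusted p = 2.84e-08), and both day 2 arrays lay below all 4 control arrays.

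Of 10092 probe sets that name no single gene, 574 (5.69%) were called between the days under CLA, 287 upward and 287 downward, and 0 were called in the control groups.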
